A study of Mus musculus with 4 samples.

Results

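Transcripts of complement components and of the proteins that restrain complement were followed through 8 RNA libraries of HT22 cells, a mouse hippocampal line. The set has 8 genes: the classical-pathway proteases C1ra and C1s1, the components C4b, C3 and Cfb, and the regulators Serping1, Cd55 and Cd59a. They were chosen by their place in the complement system and with the differences of C3 and C1s1 between Ntoco knockdown and control libraries already known, so their levels and ratios are given as a description and no test is rested on them. Of the 8 genes, 7 had a row among the 16846 genes of the count table, and 6 of those were among the 12115 genes with enough counts for the fitted model. Cd55 is not analysed here.

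The labels describe 4 groups of HT22 cells: a control short hairpin RNA (sh-Ctrl), a hairpin against the long noncoding RNA Ntoco (sh-Ntoco), an empty vector (Vector), and a vector carrying Ntoco (Lv-Ntoco). No other treatment, genotype or time is given for any group, and sh-Ctrl and Vector each serve as control of 1 arm. The titles carry differing numbers after the letters HT, while the cell line is given as HT22 for all 4. The stated purpose was to find pathways linked to Ntoco, by lowering and raising it. The tables hold 2 numbered columns for every group, which were used as 2 libraries, although the labels list 1 sample a group and do not say whether the 2 came from separate cultures. Any p-value therefore measures only the spread between these libraries, which can be technical. The columns of both vector groups carry the plasmid name pcDNA or the letters OE, where the label of the Ntoco vector has Lv, so how the vectors were delivered is uncertain. The Ntoco transcript itself was not measured here, so the group labels could not be checked against it.

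Complement is a cascade of plasma and cell-surface proteins that tags particles for uptake and can punch pores into membranes. In the classical pathway the recognition molecule C1q activates the proteases C1r and C1s, which cut C4 and C2 to form an enzyme that cleaves C3. The alternative pathway builds its own C3-cleaving enzyme from C3 and factor B, and inhibitors such as C1 inhibitor, CD55 and CD59 stop the cascade at different steps on host cells. The liver makes most circulating complement, but cells of the brain also transcribe it, and C1q and C3 are known for marking synapses that microglia remove.

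C1ra and C1s1 lie next to each other on GRCm38 chromosome 6 and point towards each other, with C1ra (Entrez Gene 50909, plus strand) from 124512621 to 124523440 and C1s1 (50908, minus strand) from 124530344 to 124542392. The 2 genes are 6903 bases apart. C3 (12266, minus strand) spans 57203967 to 57228136 of chromosome 17. C4b (12268, 34728139 to 34743902) and Cfb (14962, 34856374 to 34862514) lie on the same chromosome, 112471 bases apart. Serping1 (12258, 84765360 to 84775444) and Cd59a (12509, 104095753 to 104115410) are on chromosome 2. All 7 are annotated as protein-coding, and reads were counted over whole genes, so no exon or intron is singled out.

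RefSeq start windows of GRCm38.p6, from 250 bases before to 50 bases after an annotated start, were found for 4 of the 7 genes. The windows of C3 (chr17:57228087-57228386, minus strand), C1ra (chr6:124512371-124512670, plus strand) and the first of the 2 C1s1 windows (chr6:124542310-124542609, minus strand) are shown because these 3 genes had the largest ratios in the knockdown. Capitals mark matches, on either strand, to TTGCNNAA (a C/EBP motif), TTCNNNGAA (a STAT motif), TATAAA, or the NF-kB or interferon-stimulated response element motifs, and no 2 matches overlap.
C3: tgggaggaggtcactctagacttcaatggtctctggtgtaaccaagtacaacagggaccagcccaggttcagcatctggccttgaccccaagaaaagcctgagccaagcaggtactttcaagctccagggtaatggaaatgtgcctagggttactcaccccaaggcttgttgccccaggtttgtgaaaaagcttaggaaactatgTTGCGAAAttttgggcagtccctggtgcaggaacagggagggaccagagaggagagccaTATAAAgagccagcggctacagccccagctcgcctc
C1ra: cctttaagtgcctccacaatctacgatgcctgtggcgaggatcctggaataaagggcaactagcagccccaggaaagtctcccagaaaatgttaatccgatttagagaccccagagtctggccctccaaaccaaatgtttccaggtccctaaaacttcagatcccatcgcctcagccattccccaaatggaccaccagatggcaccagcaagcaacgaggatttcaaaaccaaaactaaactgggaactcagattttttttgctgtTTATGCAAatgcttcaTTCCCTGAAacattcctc
C1s1: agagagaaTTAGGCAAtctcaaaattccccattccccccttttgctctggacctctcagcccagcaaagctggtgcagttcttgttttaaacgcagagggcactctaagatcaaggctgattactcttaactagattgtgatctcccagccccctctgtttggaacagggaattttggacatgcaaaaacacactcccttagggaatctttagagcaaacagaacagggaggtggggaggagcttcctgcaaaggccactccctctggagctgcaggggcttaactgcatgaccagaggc

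Each of these 3 windows held 1 C/EBP match, which 10.8% of the 32851 RefSeq windows of this length also hold. It begins 45 bases before the annotated start that the window is placed on in C3, 242 bases before that of the first C1s1 window and 16 bases after that of C1ra. Both C1s1 windows are placed on starts that lie inside the gene span given above, not at its end. The second C1s1 window, chr6:124542272-124542571, held none of the motifs. C1ra also had a STAT match (8.30% of windows), and C3 had TATAAA 14 bases after its annotated start (13.6% of windows). The NF-kB motif, present in 8.46% of windows, had 0 matches in the 3, as did the interferon-stimulated response element motif (3.44% of windows), which matched once in the Cd59a window. Such matches describe letters in a window and do not show binding.

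Counts were scaled to CPM, the count relative to a common library size, with TMM factors, which correct library sizes for differences in composition. Total counts were 18452588 to 19859041 a library. Between both libraries of a pair the median absolute log2 difference over genes was 0.25 in sh-Ctrl, 0.40 in sh-Ntoco, 0.32 in Vector and 0.25 in Lv-Ntoco.

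Scaled for gene length, the proteases were the most abundant members and the alternative-pathway factor the least. The FPKM deposited by the authors, a count divided by gene length and by the column total, averaged over the 8 libraries, was 11.5 for C1ra, 5.30 for C1s1, 2.09 for Cd59a and 1.57 for C3. It was 0.266 for Serping1, 0.235 for C4b and 0.0615 for Cfb. Several neighbours in this order overlapped. C3 ranged from 0.258 to 5.20 FPKM and crossed the Cd59a range of 1.47 to 2.80, and the Serping1 range of 0.146 to 0.473 lay within that of C4b, 0.0276 to 0.606. Within the whole table, C1ra had a higher FPKM than 58.6% to 75.6% of listed genes, depending on the library, and C3 than 31.9% to 53.9%. The libraries are from bulk RNA, so fewer cells transcribing a gene and less RNA per cell cannot be told apart.

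C1ra encodes the mouse C1r protease that activates C1s. It had 18.8 and 19.4 CPM in the sh-Ctrl libraries, 38.5 and 47.7 CPM in sh-Ntoco, 46.5 and 31.5 CPM in Vector and 23.3 and 28.7 CPM in Lv-Ntoco. Every library of the other 3 groups lay above both sh-Ctrl libraries, the sh-Ntoco and Vector values overlapped, and both Lv-Ntoco libraries lay between those of sh-Ctrl and Vector. The sh-Ctrl pair was tight, with an absolute log2 difference of 0.05 that was larger than that of 13.03% of the 4213 genes of like level.

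C1s1 encodes C1s, the protease that cuts C4 and C2. Its CPM was 10.2 and 9.24 in sh-Ctrl, 34.1 and 30.4 in sh-Ntoco, 9.95 and 11.95 in Vector and 16.0 and 8.55 in Lv-Ntoco. The sh-Ntoco libraries stood above the other 6, whose values overlapped between groups. The 2 sh-Ntoco libraries were alike (log2 difference 0.16), whereas the Lv-Ntoco pair differed by 0.89, more than 93.0% of the 2785 genes of like level in that group.

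The 2 partner proteases therefore had different patterns over the groups. The ratio of C1ra to C1s1 FPKM was 2.06 and 2.36 in sh-Ctrl, 1.27 and 1.77 in sh-Ntoco, 5.25 and 2.96 in Vector and 1.64 and 3.77 in Lv-Ntoco. Both sh-Ntoco libraries had a smaller ratio than both sh-Ctrl libraries, and both Vector libraries a larger one, while the Lv-Ntoco pair spanned the sh-Ctrl values. The mean ratio was 1.52 ± 0.350 in sh-Ntoco and 4.11 ± 1.62 in Vector (SD, n = 2). Mouse C1ra and C1s1 have close copies, C1rb and C1s2, and how reads shared by copies were counted is not given in the sources used here, so the split between copies is uncertain.

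**Figure D1:**
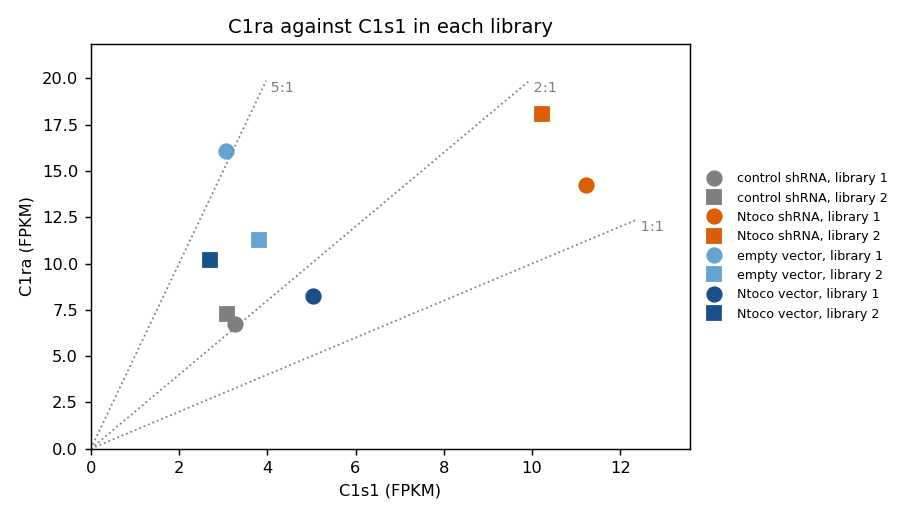
C1ra FPKM (vertical) against C1s1 FPKM (horizontal) in each of the 8 libraries, with dotted lines at ratios of 1, 2 and 5. The 2 Ntoco shRNA libraries sit at the right, with C1s1 at 10.2 and 11.2 FPKM, and the empty vector libraries are high in C1ra with C1s1 at 3.06 and 3.81 FPKM.

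C4b encodes complement C4, the substrate of C1s. It was counted 12 and 21 times in sh-Ctrl, 8 and 25 times in sh-Ntoco, 65 and 46 times in Vector and 3 and 19 times in Lv-Ntoco. In CPM this was 0.629 and 1.09, 0.419 and 1.23, 3.48 and 2.37, and 0.155 and 1.05. Both Vector libraries were above the other 6, and the Lv-Ntoco pair differed more than 96.5% of the 1128 genes of like level. Outside Vector the counts were at most 25 a library, so counting error is large there.

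C3 encodes the central component whose cleavage products tag surfaces. It had 1.89 and 1.30 CPM in sh-Ctrl, 7.90 and 25.9 CPM in sh-Ntoco, 10.5 and 6.54 CPM in Vector and 4.12 and 6.62 CPM in Lv-Ntoco. Both sh-Ctrl libraries lay below the other 6, and the lower sh-Ntoco library fell within the Vector range. The sh-Ntoco libraries differed by 1.70 (log2), more than 91.5% of 1531 genes of like level, and library 2 alone held 525 of the 676 sh-Ntoco counts. Between its lowest and highest library C3 varied 19.9-fold, against 22.5-fold for C4b (from 3 to 65 counts), 3.98-fold for C1s1, 3.37-fold for Serping1, 2.55-fold for C1ra and 1.79-fold for Cd59a.

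Cfb encodes factor B, the protease of the alternative-pathway C3 convertase. It had 5 and 0 counts in sh-Ctrl, 1 and 3 in sh-Ntoco, 4 and 3 in Vector and 2 and 8 in Lv-Ntoco, too few for the model. The 0 in sh-Ctrl library 2 allows up to 0.156 CPM (3 counts), and all groups overlapped, so a difference in Cfb was not detectable at this depth. Counting limits of this kind cover counting error only.

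Serping1 encodes C1 inhibitor, which inactivates C1r and C1s. It was also scarce, though less so than Cfb, with 8 and 5 counts in sh-Ctrl, 5 and 9 in sh-Ntoco, 9 and 17 in Vector and 10 and 12 in Lv-Ntoco. In CPM the 4 vector libraries, at 0.481 or more, lay just above the 4 hairpin libraries, at 0.444 or less, and values overlapped within each arm. Serping1 met the filter through the vector groups. By FPKM, the proteases C1ra and C1s1 were each more abundant than their inhibitor in all 8 libraries.

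Cd59a encodes a membrane-anchored protein that blocks assembly of the terminal pore. It had 7.59 and 7.68 CPM in sh-Ctrl, 8.16 and 8.93 CPM in sh-Ntoco, 6.69 and 5.46 CPM in Vector and 4.997 and 5.96 CPM in Lv-Ntoco. All 4 hairpin libraries were above all 4 vector libraries, and within each arm the values were close. Of the 6 modelled members it had the smallest range over the libraries.

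**Figure D2:**
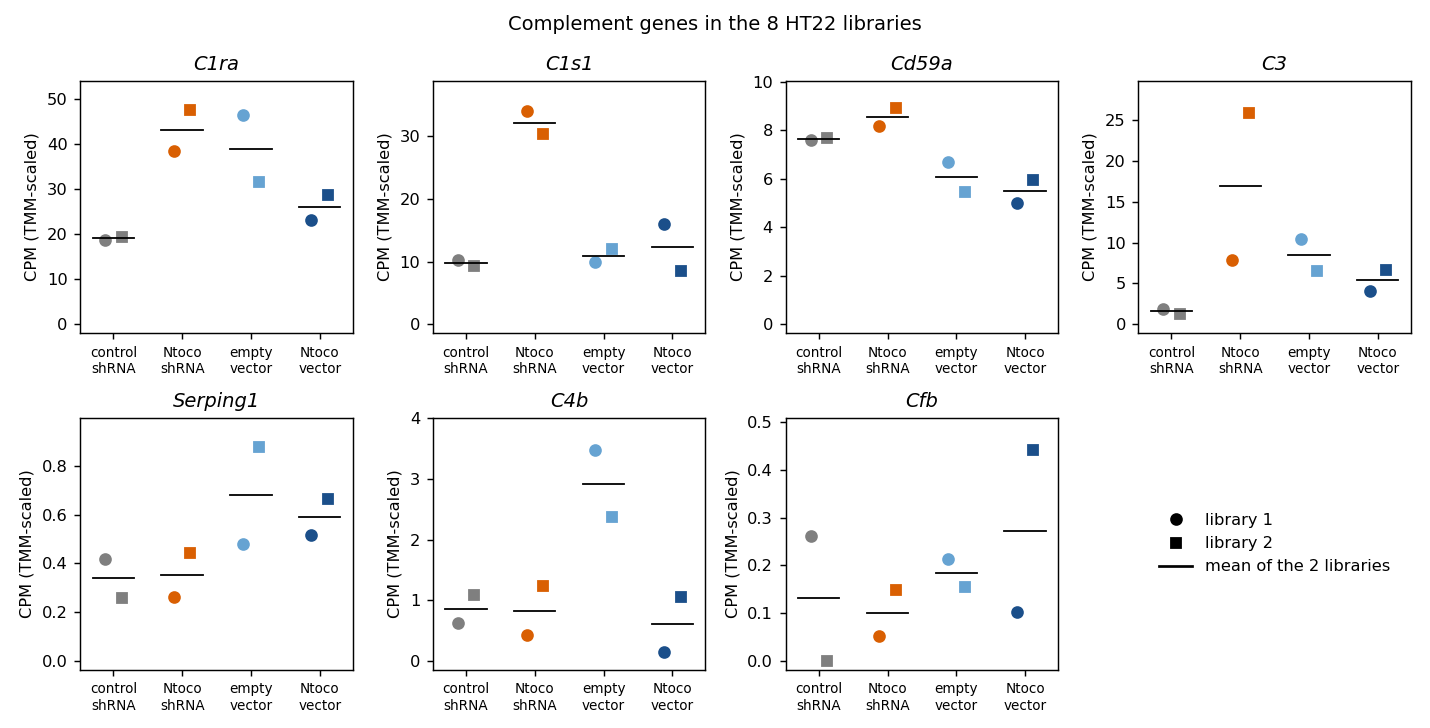
TMM-scaled CPM (vertical, linear axes that include 0, a separate scale for each gene) of the 7 measured members in the 4 groups (horizontal). Circles are library 1, squares library 2 and lines the mean of both. C1s1 stands out in the Ntoco shRNA pair (34.1 and 30.4 CPM), C4b in the empty vector pair (3.48 and 2.37 CPM), and C3 is lowest in the control shRNA pair.

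Ntoco knockdown was set against the control hairpin in a model over all 12115 genes and 4 groups. The log2 ratio of sh-Ntoco to sh-Ctrl was 3.40 (SE 0.64) for C3, a 10.6-fold ratio, 1.73 (SE 0.33) for C1s1, a 3.31-fold ratio, and 1.18 (SE 0.26) for C1ra, a 2.26-fold ratio. It was 0.16 (SE 0.30) for Cd59a, 0.06 (SE 0.67) for Serping1 and -0.05 (SE 0.86) for C4b. Among all genes, the C3 ratio was above that of 99.9%, the C1s1 ratio above 99.1% and the C1ra ratio above 97.8%. This contrast is the one whose values chose the members, so nothing is read from these ranks. Without sh-Ntoco library 2 the C3 log2 ratio was 2.31, and without library 1 it was 4.01. The C1s1 and C1ra ratios stayed between 1.63 and 1.81 and between 1.01 and 1.31 when any 1 of the 4 libraries compared was left out.

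With edgeR's quasi-likelihood test 0 of the 6 members passed an adjusted p of 0.05, as did 0% of all genes tested, while 378 genes had an unadjusted p under 0.05. DESeq2's Wald test called C3 and C1s1, beside 0.124% of all genes, and left C1ra at an adjusted p of 0.0671. In 4 of the 6 members, C3, C1s1, C1ra and Cd59a, both sh-Ntoco libraries exceeded both sh-Ctrl libraries, and in 0 were both lower. The background was 15.1% of genes with both higher and 14.1% with both lower. The median log2 ratio of the 6 was 0.67, and that of all genes 0.01. Because values of this contrast were known when the members were chosen, nothing is read from these calls, the count of separated members or the median.

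Ntoco overexpression was set against the empty vector, which shares no library with the knockdown comparison. C4b and C1ra were lower in both Lv-Ntoco libraries than in both Vector libraries, and no member was higher in both. The log2 ratio was -2.28 (SE 0.87) for C4b, -0.59 (SE 0.26) for C1ra and -0.66 (SE 0.58) for C3. It was -0.21 (SE 0.61) for Serping1, -0.15 (SE 0.30) for Cd59a and 0.16 (SE 0.32) for C1s1. The 2 separated members of 6 stand beside 23.1% of all genes with both libraries lower and 24.1% with both higher, a share near the background for so few genes. The median was -0.40 for the 6 and -0.01 for all genes.

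With edgeR 0 of the 6 members and 0% of genes passed in this comparison (923 genes had an unadjusted p under 0.05), and the edgeR adjusted p of C4b and C1ra was 0.598 for both. DESeq2 called 0 members and 0.00825% of genes. The C4b log2 ratio was -4.18 without Lv-Ntoco library 2, which leaves the library of 3 counts, and -1.47 without Lv-Ntoco library 1. Leaving out Vector library 1 gave -0.28 for C1ra, and leaving out Vector library 2 gave -0.84. The C1s1 ratio was -0.35 without Lv-Ntoco library 1 and 0.55 without Lv-Ntoco library 2. The C3 ratio ranged from -1.04 to -0.28 over the 4 libraries left out in turn.

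The 2 controls were compared as well. Both Vector libraries held more C3, C1ra, C4b and Serping1 than both sh-Ctrl libraries and less Cd59a. The log2 ratio of Vector to sh-Ctrl was 2.41 (SE 0.62) for C3, a 5.33-fold ratio, 1.03 (SE 0.26) for C1ra, 1.76 (SE 0.84) for C4b and 0.99 (SE 0.64) for Serping1. It was 0.17 (SE 0.32) for C1s1 and -0.33 (SE 0.30) for Cd59a. Both Vector libraries were above both sh-Ctrl libraries in 24.6% of all genes and below both in 26.5%. Serping1 was tested only because of its counts in the vector groups, so its place among the higher members follows in part from the filter, and no count of separated members is read from this comparison. By edgeR 0 members and 0% of genes passed (1520 genes had an unadjusted p under 0.05), and DESeq2 called C3 and C1ra, beside 2.37% of the genes it tested. This comparison shares the sh-Ctrl libraries with the knockdown comparison, so a low C3 or C1ra value in sh-Ctrl enters both. It also shares the Vector libraries with the overexpression comparison, so a high Vector value raises the ratio here and lowers the one there. C4b and C1ra were lower in Lv-Ntoco than in Vector but not than in sh-Ctrl. The Lv-Ntoco values of C4b (0.155 and 1.05 CPM) overlapped those of sh-Ctrl (0.629 and 1.09 CPM), and those of C1ra lay above sh-Ctrl.

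**Figure D3:**
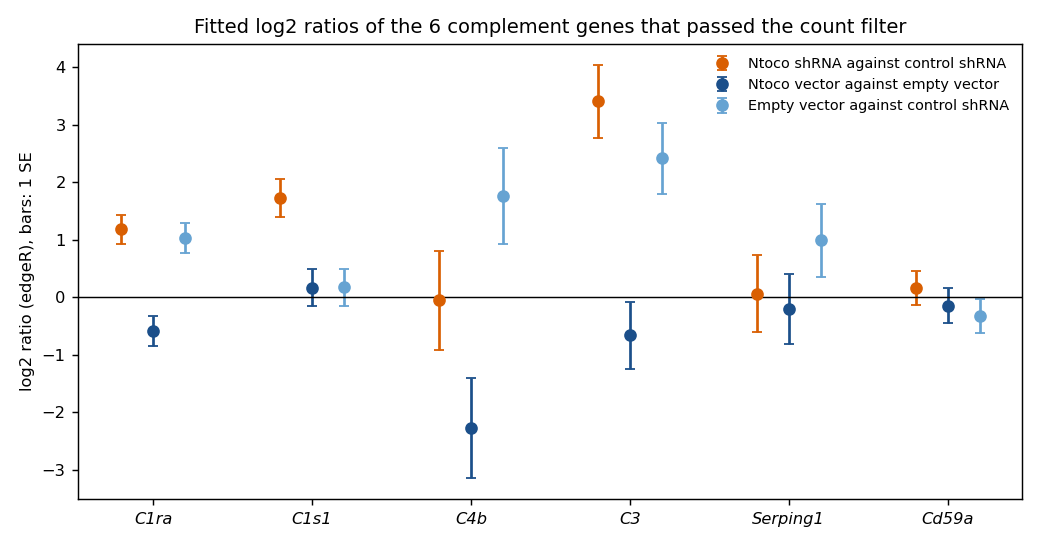
Fitted log2 ratios (vertical, bars of 1 SE) of the 6 modelled members (horizontal) in the 3 comparisons. C3 and C1ra are above 0 both for Ntoco shRNA and for empty vector against control shRNA, C1s1 is at 1.73 in the former and 0.17 in the latter, and C4b (-2.28) is the lowest for the Ntoco vector against empty vector.

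The difference between both effects, Lv-Ntoco against Vector less sh-Ntoco against sh-Ctrl, was fitted as 1 contrast over all 8 libraries. It was -4.07 (SE 0.85) for C3, -1.76 (SE 0.37) for C1ra and -1.56 (SE 0.46) for C1s1 on the log2 scale. For C4b it was -2.23 (SE 1.21), for Cd59a -0.31 (SE 0.42) and for Serping1 -0.27 (SE 0.90). With edgeR 0 members and 0% of all genes passed (838 genes had an unadjusted p under 0.05). The adjusted p was 0.650 for C3, C1ra and C1s1. DESeq2 called C3 and C1ra, beside 0.116% of genes. The knockdown term of this contrast chose the members, so it too is a description.

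Around the members, most complement genes measured were scarce in HT22 cells. The other complement genes of the lists number 55, of which 43 had a row, and 17 of these averaged at least 1 CPM. By role these 17 were C1rb, C1s2, C1rl and C2 of the classical pathway, and Masp1, Masp2 and Colec12 of the lectin pathway. They further were Cfp (properdin), Hc (component C5), the soluble regulator Clu, the membrane regulators Cr1l and Cd46, and the receptors or binding proteins Itgb2, Cd93, C1qbp, Lrp1 and Calr. Only 1 of the 7 genes of the terminal pathway, Hc, reached 1 CPM. Calr, a chaperone that also binds C1q, had the highest mean FPKM at 917, followed by C1qbp at 204 and the scavenger receptor Colec12 at 67.2.

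In the knockdown, 5 of the 19 other complement genes tested were higher in both libraries and 1 was lower in both, beside 15.1% and 14.1% of all genes, with a median log2 ratio of 0.21. C1s2, the copy of C1s1, had 0.838 and 1.25 CPM in sh-Ctrl and 4.50 and 2.91 CPM in sh-Ntoco (log2 ratio 1.82, SE 0.53). C1rb had 1.41 and 1.45 CPM in sh-Ctrl and 2.14 and 3.25 CPM in sh-Ntoco (log2 ratio 0.91, SE 0.45). Both copies thus differed in the same direction as C1s1 and C1ra, and reads that fit 2 copies could add to this. Clu encodes clusterin, which blocks the terminal complex, and had 79.0 and 79.4 CPM in sh-Ctrl and 170 and 105 CPM in sh-Ntoco (log2 ratio 0.80, SE 0.24). C2, which C1s cuts, had 6.81 and 7.01 CPM against 10.9 and 9.02 CPM. Hc had 23.9 and 28.2 CPM against 29.2 and 31.1 CPM, and Cfp, which stabilises the alternative convertase, was lower, with 4.92 and 5.35 CPM against 2.67 and 3.70 CPM. By edgeR 0 of the 19 passed, and 2 had an unadjusted p under 0.05.

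In the overexpression comparison 9 of the 19 were lower in both libraries and 0 were higher in both, beside 23.1% and 24.1% of all genes, with a median log2 ratio of -0.27. C1rb had 3.32 and 5.31 CPM in Vector and 1.80 and 1.82 CPM in Lv-Ntoco (log2 ratio -1.25, SE 0.44). C1s2 had 1.60 and 1.70 CPM against 1.34 and 0.662 CPM, and Hc 27.8 and 29.5 CPM against 19.99 and 19.9 CPM. Masp2, a protease of the lectin pathway, had 30.3 and 12.4 CPM against 2.16 and 5.30 CPM (log2 ratio -2.52, SE 1.05). The Vector values of Masp2 were also above the 4.24 and 11.4 CPM of sh-Ctrl, and sh-Ntoco had 2.46 and 26.4 CPM, so its libraries disagreed within groups. Cr1l, the rodent membrane inhibitor of C3 convertases, had 84.1 and 74.0 CPM against 70.5 and 66.4 CPM, and Clu 77.3 and 77.6 CPM against 66.9 and 73.8 CPM. The integrin chain Itgb2 had 9.04 and 13.7 CPM against 7.57 and 3.37 CPM, and Cd46 had 0.695 and 1.13 CPM against 0.206 and 0.276 CPM. The remaining separated gene, Susd4, had at most 24 counts in a library and is named only for completeness of the count. By edgeR 0 of the 19 passed, with 3 at an unadjusted p under 0.05.

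**Figure D4:**
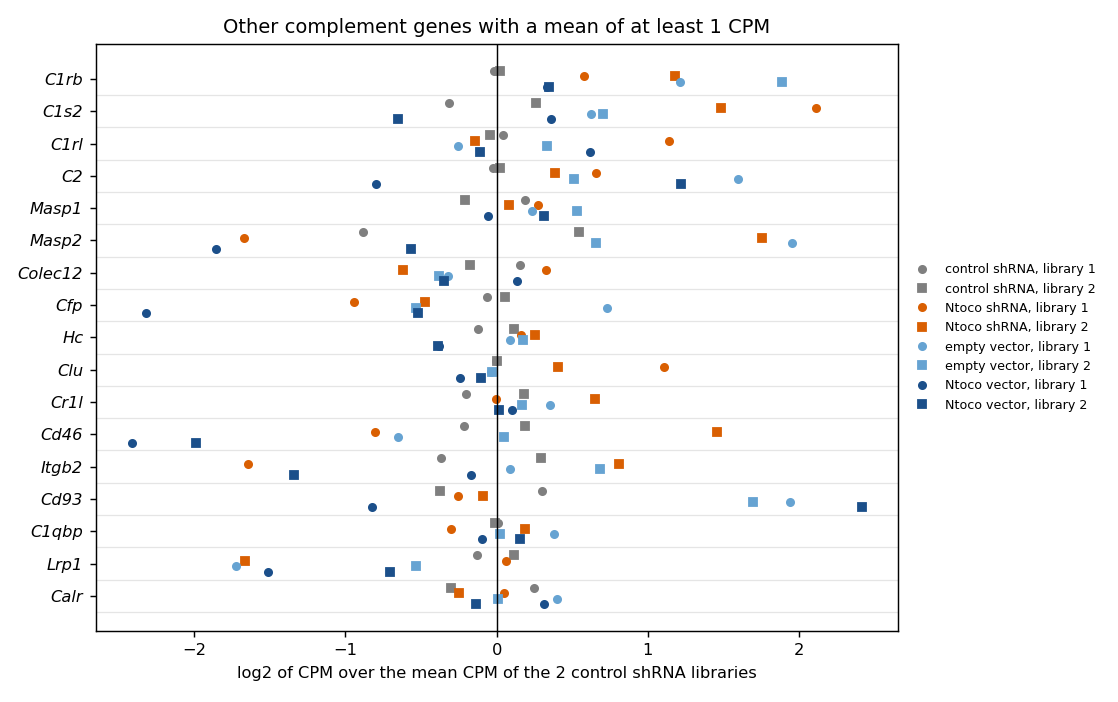
Level of each of the 17 other complement genes of at least 1 CPM (vertical) as the log2 of its CPM over the mean CPM of the 2 control shRNA libraries (horizontal), with circles for library 1 and squares for library 2. The Ntoco shRNA values of C1s2 (4.50 and 2.91 CPM) and Clu (170 and 105 CPM) lie to the right, and the libraries of Masp2 scatter widely within groups.

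Coagulation and fibrinolysis genes, which share a reference pathway with complement, had 14 of 35 listed rows tested. In the knockdown 3 were higher and 3 lower in both libraries, beside 15.1% and 14.1% of all genes, with a median log2 ratio of 0.24, and 0 passed edgeR. The log2 ratio was 0.84 (SE 0.51) for the anticoagulant cofactor Pros1 and 0.79 (SE 0.54) for tissue factor, F3. In the overexpression comparison 0 were higher and 5 lower in both, beside 24.1% and 23.1% of all genes, with a median of -0.28 and 0 passing edgeR. The largest ratios there were -2.56 (SE 1.31) for Serpinf2, -1.93 (SE 0.81) for Vwf and -1.15 (SE 0.51) for thrombomodulin, Thbd. Serpinf2 had 1.23 and 0.103 CPM in Vector and 0.0515 and 0.166 CPM in Lv-Ntoco, so its ratio rests on Vector library 1. Vwf had at most 1.13 CPM in any library. Thbd had 70.9 and 54.9 CPM in Vector and 12.3 and 44.4 CPM in Lv-Ntoco, beside 14.4 and 14.3 CPM in sh-Ctrl.

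Cytokine, receptor and transcription factor genes known to induce complement transcription had 18 of 20 genes tested. In 9 of the 18 both sh-Ntoco libraries were above both sh-Ctrl libraries and in 0 below (median log2 ratio 0.32), beside 15.1% and 14.1% of all genes. In the overexpression comparison 0 were higher and 9 lower in both libraries (median -0.32), beside 24.1% and 23.1% of all genes. Between Vector and sh-Ctrl 12 were higher and 1 lower (median 0.57), beside 24.6% and 26.5%. That comparison uses the control libraries of both others, so a low sh-Ctrl or a high Vector value enters more than 1 of these counts, and they are not independent. By edgeR 0 passed in any of the 3 comparisons, with 1, 4 and 8 at an unadjusted p under 0.05. Whether these genes act on the complement members was not tested.

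The genes most like C3 and C1s1 were sought among 11265 genes of at least 1 CPM by Pearson's r of log2 CPM over the 8 libraries, which share groups and scaling. For C3 they were Met (0.97), Gm11703, Mea1, Morn2 and Pex19 (0.94), and for C1s1 Isoc2a (0.98), Tspan32, Anapc13, 1600014C10Rik and Tmem106c (0.93). Their ranges were narrow beside those of the members. Met went from 30.1 to 46.9 CPM and Isoc2a from 12.3 to 19.1 CPM. With so many genes set against 8 libraries these values are a description, and 24 genes had r over 0.9 with C3 and 11 with C1s1. The correlation of ranks (Spearman's rho) of the named genes was 0.88 to 0.93 with C3 and 0.64 to 0.95 with C1s1.

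The markers of cell types were measured in the same libraries. Of 7 neuronal markers with a row, only Syp was tested, and Map2, Nefl and Tubb3 had at most 2 counts in any library, so the defining markers of neurons were at or near 0. The fibroblast markers Col1a2 and Col1a1 averaged 2081 and 513 CPM, while Dcn had at most 1 count and Lum had 0 in every library. The summed fibroblast markers were 3616 to 3634 CPM in sh-Ctrl, 1583 to 5058 in sh-Ntoco, 1441 to 2566 in Vector and 2270 to 2500 in Lv-Ntoco. The 7 astrocyte markers summed to 146 to 164 CPM in sh-Ctrl, 61.8 to 137 in sh-Ntoco, 60.9 to 134 in Vector and 128 to 130 in Lv-Ntoco. Gja1, Sox9, Aldh1l1 and S100b made up nearly all of these sums, with means of 55.4, 31.7, 17.0 and 14.7 CPM. Gfap, Slc1a2 and Slc1a3 averaged only 0.773, 0.728 and 0.236 CPM, so the sum does not stand for the whole marker set.

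The summed markers of microglia and macrophages, of hepatocytes and of endothelium were lower than those of astrocytes and fibroblasts in every group. The 9 microglia and macrophage markers with a row summed to 19.0 to 19.4 CPM in sh-Ctrl, 15.1 to 16.5 in sh-Ntoco, 14.1 to 15.9 in Vector and 11.6 to 12.4 in Lv-Ntoco. Of these 9, 5 had enough counts to be tested. Cd68 had 4.84 to 13.7 CPM, Csf1r 0.642 to 4.40 CPM, Cx3cr1 0.681 to 2.96 CPM and Tmem119 0.395 to 2.98 CPM. Ptprc was at 0 in all 8 libraries, and Adgre1 and Itgam had at most 1 and 2 counts. The 8 hepatocyte markers summed to at most 2.78 CPM, and the 6 endothelial ones to 4.81 to 13.2 CPM. The part of the macrophage, fibroblast and astrocyte marker differences in the complement values was not tested.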

How the data were processed

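Polyadenylated RNA of HT22 cells was sequenced after TRIzol extraction with a stranded library kit, per the labels' protocols. The authors deposited raw read counts per gene and FPKM values. Trimmomatic, HISAT2, Cufflinks, HTSeq and DESeq, with build mm10, are listed in the submitters' processing notes. Their versions, annotation and counting strand were not given in the sources used here, so overlapping genes on opposite strands cannot be told apart. The deposited FPKM equalled the count over 1 gene length and the column total in 12615 of 12615 genes counted in all libraries (tolerance 0.01). Each column was assigned to the group whose role its name states, and 0 columns were left out. Between both columns of a group the chi-square per gene of at least 100 counts was 62.1 to 156, so they differ beyond sampling noise.

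Genes were filtered with filterByExpr (minimum count 10), scaled with TMM and tested with edgeR 4.0.16 (quasi-likelihood, 4 groups in 1 model, 4 residual degrees of freedom, Benjamini-Hochberg over 12115 genes, threshold 0.05). The spread between libraries, a biological coefficient of variation of 28.0%, limits precision for all but the scarce genes. Ratios are on the log2 scale with edgeR's prior count of 0.125. Profiles for likeness and differences between the libraries of a pair used log2 CPM with a prior count of 2, and genes of like level lay within 1 log2 unit. Alternatives were DESeq2 1.42.0, its size factors, no filter, only the groups compared, a replicate block, each library left out, and limma 3.58.1 on log2(FPKM + 1). Software was R 4.3.3 and matplotlib 3.10.9, and the fits were tested on simulated data, after which limma was given an intensity trend. At the lower simulated spread limma made more false calls than edgeR and DESeq2, and at the higher one DESeq2 made the most. The higher one was set at the 28.0% of these data, so the DESeq2 calls reported here carry that limit. The members and lists were chosen with earlier results of these data known, and the motifs with the sequences in view. Named were all members, other complement genes of at least 1 CPM (with values where both libraries lay on one side of both controls, and the 3 of highest FPKM), the 3 coagulation genes of largest absolute ratio a comparison (1 of them is not reported here), and the 5 genes most like C3 and C1s1. Susd4 and Csmd3 were tested but averaged under 1 CPM. Susd4 was named after its values were seen.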

Additional observations from a re-analysis of the deposited data

How the results depend on the processing

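Calls depended on the tool. With DESeq2 2 complement genes passed in the knockdown, 2 in Vector against sh-Ctrl and 2 in the difference of effects, and 15, 1, 281 and 14 genes overall in the knockdown, overexpression, Vector against sh-Ctrl and difference contrasts, where edgeR called 0. In edgeR, fitting only the groups compared called 1 gene for overexpression and 128 for Vector against sh-Ctrl, and fitting without the filter called 3 in the latter, but 0 complement genes in each. With 1 library left out the overall calls ranged from 0 to 1 in the knockdown (1 without sh-Ntoco library 1), from 0 to 25 in overexpression (25 without Lv-Ntoco library 2) and from 0 to 1 in the difference contrast (1 without sh-Ntoco library 1), with 0 complement genes. A fit with 1 library in a group assumes that it varies like the others. On log2(FPKM + 1) the sh-Ntoco less sh-Ctrl difference was 1.60 for C3 and 1.49 for C1s1, against 3.11 and 1.72 in log2 CPM, as a pseudocount of 1 is large for such low values. C3, C1s1 and C1ra kept the sign of their knockdown ratio in 10 of 10 alternatives, as did Cd59a with a ratio of 0.16 (SE 0.30). In each of these genes both sh-Ntoco libraries exceeded both sh-Ctrl libraries, so refits of the same libraries could hardly turn the sign. No support is drawn from that count.

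The column numbers are not given as pairs by the labels, and deviations of same-numbered libraries correlated at 0.36 for sh-Ctrl and sh-Ntoco and -0.22 for Vector and Lv-Ntoco. With the numbers as a replicate block edgeR called 0 genes in every contrast, as without it. Depth limits Cfb, Serping1 and C4b, whose libraries held 0 to 8, 5 to 17 and 3 to 65 counts.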
